A study of Danio rerio with 12 samples.

Results

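Heme oxygenase and the genes of the Nrf2 antioxidant pathway were followed in GFP-positive cells sorted from the trunk around the lesion site, or the matching region, of zebrafish larvae. The 10 genes, hmox1a, gclm, gclc, prdx1, txn, nqo1, nfe2l2a, keap1a, keap1b and sqstm1, were taken by symbol, and each matched 1 of the 31351 entries of the count table. All larvae carried mpx:GFP, a transgene in which the promoter of the neutrophil myeloperoxidase gene drives GFP. The 4 groups were injured larvae kept in AMD3100, injured larvae kept in DMSO, uninjured larvae kept in AMD3100 and uninjured larvae kept in DMSO, with 3 libraries each. Injured larvae had a full transection of the spinal cord at anal pore level at 3 days post-fertilization and were sampled at 8 hours post-injury, and uninjured larvae were age-matched. AMD3100, a small molecule that blocks Cxcr4, the receptor of the chemokine Cxcl12, was given at 25 uM with 0.1% DMSO from 4 to 8 hours post-injury. The labels call the libraries biological replicates but do not say how many larvae each one pooled, nor how much DMSO the groups without AMD3100 received.

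Nrf2, encoded in zebrafish by nfe2l2a and a second copy, nfe2l2b, is a transcription factor that is held in the cytoplasm and marked for degradation by Keap1. Oxidants and electrophiles modify Keap1, and Nrf2 then enters the nucleus and activates genes with antioxidant response elements. Its textbook targets make glutathione, reduce thioredoxin and peroxides, break down heme and reduce quinones. Neutrophils produce superoxide with their own NADPH oxidase, so they are exposed to the oxidants that these enzymes remove.

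Libraries held between 655451 and 12173133 counts, and the shallowest, injured AMD3100 replicate 1, had 364 CPM (counts scaled to library size with TMM factors) of the EGFP transgene, against 1259 to 2141 CPM in the other 11 libraries. By group, EGFP was at 364 to 1321 CPM in injured AMD3100 against 1560 to 2124.5 CPM in uninjured AMD3100. In DMSO it was at 1288 to 1410 CPM in injured against 1769 to 2141 CPM in uninjured larvae. Mitochondrial transcripts took 14.2% to 27.8% of counts in injured AMD3100, 19.1% to 26.9% in injured DMSO, 17.9% to 21.4% in uninjured AMD3100 and 29.9% to 32.1% in uninjured DMSO. The 16 neutrophil markers found summed to 18133 to 28416 CPM in injured AMD3100, against 46838 to 61296 CPM in uninjured AMD3100. They summed to 17177 to 22993 CPM in injured DMSO, against 41356 to 54860 CPM in uninjured DMSO; exact two-sided permutation tests gave p = 0.1 in both treatments, the lowest value that 3 against 3 libraries can reach. Most of the neutrophil sum came from npsn and lyz, and lyz was highest, at 10483 CPM, in the shallowest library. Averaged over both treatments, 6 of 15 tested neutrophil markers were called lower in injured larvae and 1 higher (edgeR adjusted p under 0.05). Their median log2 fold change was -0.44, and 8.01% of all entries tested were called lower and 7.97% higher. The neutrophil gene mpx was at 992 to 1878 CPM in injured AMD3100, against 2952 to 4410 CPM in uninjured AMD3100. In DMSO mpx was at 940 to 1564 CPM in injured against 2508 to 3985 CPM in uninjured larvae. The 25 macrophage markers found summed to 1315 to 1492 CPM in injured AMD3100, against 1574 to 1751 CPM in uninjured AMD3100 (exact two-sided permutation p = 0.1). They summed to 1145 to 1581 CPM in injured DMSO, against 1485 to 1749 CPM in uninjured DMSO (exact two-sided permutation p = 0.3). Most of the macrophage sum came from ctss2.1 and spi1b, which are not restricted to macrophages, while mfap4 was at 0 in all libraries and mpeg1.1 was between 2.48 and 14.1 CPM. Other macrophage genes went different ways. The gene marco was at 9.81 to 14.2 CPM in injured AMD3100 against 1.35 to 10.0 CPM in uninjured AMD3100. In DMSO marco was at 2.24 to 6.97 CPM in injured against 1.09 to 4.35 CPM in uninjured larvae. Over all libraries csf1ra was between 0 and 11.1 CPM. The gene c1qb held 9 counts in each injured group, against 109 in uninjured AMD3100 and 26 in uninjured DMSO. Counts of c1qa and c1qc were also lower in injured groups. The 40 skeletal muscle markers found summed to 3414 to 16789 CPM in injured AMD3100 against 17630 to 58792 CPM in uninjured AMD3100 (exact two-sided permutation p = 0.1). They summed to 2694 to 12270 CPM in injured DMSO against 5435 to 29087 CPM in uninjured DMSO (exact two-sided permutation p = 0.5). The other lists were read in the same test, with the same shares of 7.97% higher and 8.01% lower over all entries. There 0 of 35 tested skeletal muscle markers were higher in injured larvae and 9 were lower (median log2 fold change -1.80). Of 16 tested macrophage markers 2 were higher and 6 lower (median -0.52). Of 12 tested erythroid markers 1 was higher in injured larvae and 4 were lower. The median log2 fold change of the erythroid markers was 0.003 with AMD3100 and -3.10 in DMSO. Of 15 skin and epithelial markers 2 were higher and 0 lower, and of 6 neural and glial markers 1 was higher and 1 lower. None of 11 mesenchymal, cartilage and notochord markers, 2 endothelial markers and 1 lymphoid or thrombocyte marker was called in that test. The part of these differences in the results was not tested, beyond the fits with the muscle or macrophage share as a covariate. In sorted bulk cells, fewer cells of a type and less RNA per cell cannot be told apart.

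The first question was how the pathway differs between neutrophils of injured and uninjured larvae. Averaged over both treatments, hmox1a, prdx1, gclm and txn were higher in injured larvae and nqo1 was lower, while nfe2l2a, keap1a, keap1b, gclc and sqstm1 did not pass the test. All 10 genes passed the filter on low counts, so 4 of 10 were called higher and 1 of 10 lower. The 10 genes were chosen with earlier results of these data known, so the shares over all entries are given for description only. Over all 8453 entries tested, 16% were called, 7.97% higher and 8.01% lower, at an adjusted p under 0.05 (edgeR quasi-likelihood test, Benjamini-Hochberg). The median log2 fold change of the 10 genes was 0.26, against -0.05 over all entries tested. In these 5 genes no injured library overlapped an uninjured one of its treatment, in the same direction in both treatments. That was so of 11.2% of all entries (5.95% higher and 5.26% lower in injured larvae). The injured libraries of nqo1 held at most 3 counts. It passed the filter through its uninjured libraries, and depth limits what its separation can show. The 5 calls held in this averaged contrast without any 1 of the 12 libraries.

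Heme oxygenase 1, the enzyme that opens the heme ring to biliverdin and releases carbon monoxide and iron, is encoded by hmox1a (ENSDARG00000027529). It had 67.3, 36.8 and 18.3 CPM in injured AMD3100 replicates 1 to 3, against 8.09, 8.30 and 5.75 CPM in uninjured AMD3100. It had 9.96, 30.2 and 36.4 CPM in injured DMSO replicates 1 to 3, against 7.07, 6.59 and 5.45 CPM in uninjured DMSO. Injured DMSO replicate 1 lay only just above the uninjured libraries, and the injured libraries spread widely while the uninjured ones lay close together. The highest value, in the shallowest library, rested on 48 counts. Averaged over both treatments, hmox1a rose by 2.21 on the log2 scale (SE 0.360, adjusted p = 8.01e-04), a 4.63-fold difference with a 95% interval of 2.72 to 7.88. Without injured AMD3100 replicate 1 the log2 fold change was 1.99 (adjusted p = 0.00108).

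The rate-limiting enzyme of glutathione synthesis, glutamate-cysteine ligase, has a catalytic subunit encoded by gclc (ENSDARG00000013095) and a modifier subunit encoded by gclm (ENSDARG00000018953), which lowers the enzyme's sensitivity to feedback by glutathione. The modifier gene gclm had 30.8, 48.9 and 28.6 CPM in injured AMD3100, against 15.5, 11.6 and 8.51 CPM in uninjured AMD3100. It had 25.6, 35.2 and 33.6 CPM in injured DMSO, against 7.07, 14.6 and 8.18 CPM in uninjured DMSO. The lowest injured library, injured DMSO replicate 1, stood well above the highest uninjured one, and gclm rose by 1.67 on the log2 scale (SE 0.252, adjusted p = 4.34e-04). The catalytic gene gclc had 33.6, 36.8 and 31.4 CPM in injured AMD3100 against 30.3, 23.6 and 27.8 CPM in uninjured AMD3100, and 32.9, 29.3 and 33.6 CPM in injured DMSO against 34.3, 28.6 and 23.4 CPM in uninjured DMSO. The groups in DMSO overlapped, and gclc did not pass the test (log2 fold change 0.24, 95% interval -0.14 to 0.62, adjusted p = 0.3995). The 95% intervals of gclm and gclc did not overlap, although the difference between these 2 genes was not itself tested.

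Peroxiredoxin 1, which reduces hydrogen peroxide with electrons from thioredoxin, is encoded by prdx1 (ENSDARG00000058734) and gave the smallest p of the 10 genes. It had 279, 377 and 213 CPM in injured AMD3100, against 58.0, 66.6 and 82.1 CPM in uninjured AMD3100. It had 227, 328 and 316 CPM in injured DMSO, against 58.8, 54.2 and 44.9 CPM in uninjured DMSO. The lowest injured library, at 213 CPM, stood far above the highest uninjured one, at 82.1 CPM, and prdx1 rose by 2.27 on the log2 scale (SE 0.202, adjusted p = 8.63e-06), ranking 10 among the 8453 entries by p. Thioredoxin, the small disulfide reductase that recharges peroxiredoxins, is encoded by txn (ENSDARG00000044125). It had 311, 259 and 218 CPM in injured AMD3100 against 164, 144 and 158 CPM in uninjured AMD3100, and 249.97, 251 and 256 CPM in injured DMSO against 141, 133 and 142 CPM in uninjured DMSO. The injured DMSO libraries were nearly equal while those with AMD3100 spread more, and txn rose by 0.81 on the log2 scale (SE 0.158, adjusted p = 0.00304).

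The quinone reductase gene nqo1 (ENSDARG00000010250), whose product reduces quinones with NADH or NADPH and which is a classic Nrf2 target in mammals, went the other way. It had 1, 3 and 0 counts in injured AMD3100 replicates 1 to 3, against 17, 32 and 17 counts in uninjured AMD3100. It had 0, 2 and 2 counts in injured DMSO, against 3, 3 and 25 counts in uninjured DMSO. Scaled to CPM these were 0.611 ± 0.718 in injured AMD3100 against 4.31 ± 1.39 in uninjured AMD3100, and 0.166 ± 0.161 in injured DMSO against 2.79 ± 1.54 in uninjured DMSO (mean ± SD, n = 3). The highest injured value, 1.402 CPM, was a single count in the shallowest library. The fitted log2 fold change averaged over both treatments was -3.86 (SE 0.750, adjusted p = 0.00298), a size that rests on a sum of 4 counts in each injured group. A library with 3 counts would reach 4.21 CPM in injured AMD3100 replicate 1, so at its depth that library could not show a difference from the uninjured levels of 1.63, 2.197 and 2.95 CPM, while the other 3 uninjured libraries were at 4.25 to 5.73 CPM. Without it the log2 fold change was -4.10 (adjusted p = 0.00268). The 16 endothelial markers found also summed lower in injured libraries, at 8.41 to 17.7 CPM in injured AMD3100 against 21.3 to 33.7 CPM in uninjured AMD3100. In DMSO they summed to 12.9 to 16.8 CPM in injured against 19.8 to 49.5 CPM in uninjured larvae (exact two-sided permutation p = 0.1 in either treatment). This was not particular to endothelium. Neutrophil sums were lower in both treatments, and muscle, macrophage, and lymphoid or thrombocyte sums with AMD3100, each at the same permutation p of 0.1. Erythroid sums were lower in injured larvae in DMSO, also at a permutation p of 0.1. The lymphatic gene lyve1b gave 43 counts in uninjured AMD3100 replicate 1 and 67 counts in uninjured DMSO replicate 1, and 0 to 3 counts in every other library. Among the defining endothelial genes, cdh5 was at 0 in both injured groups and kdrl was at 0 in both uninjured groups. The part of these markers in the nqo1 result was not tested.

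**Figure D1:**
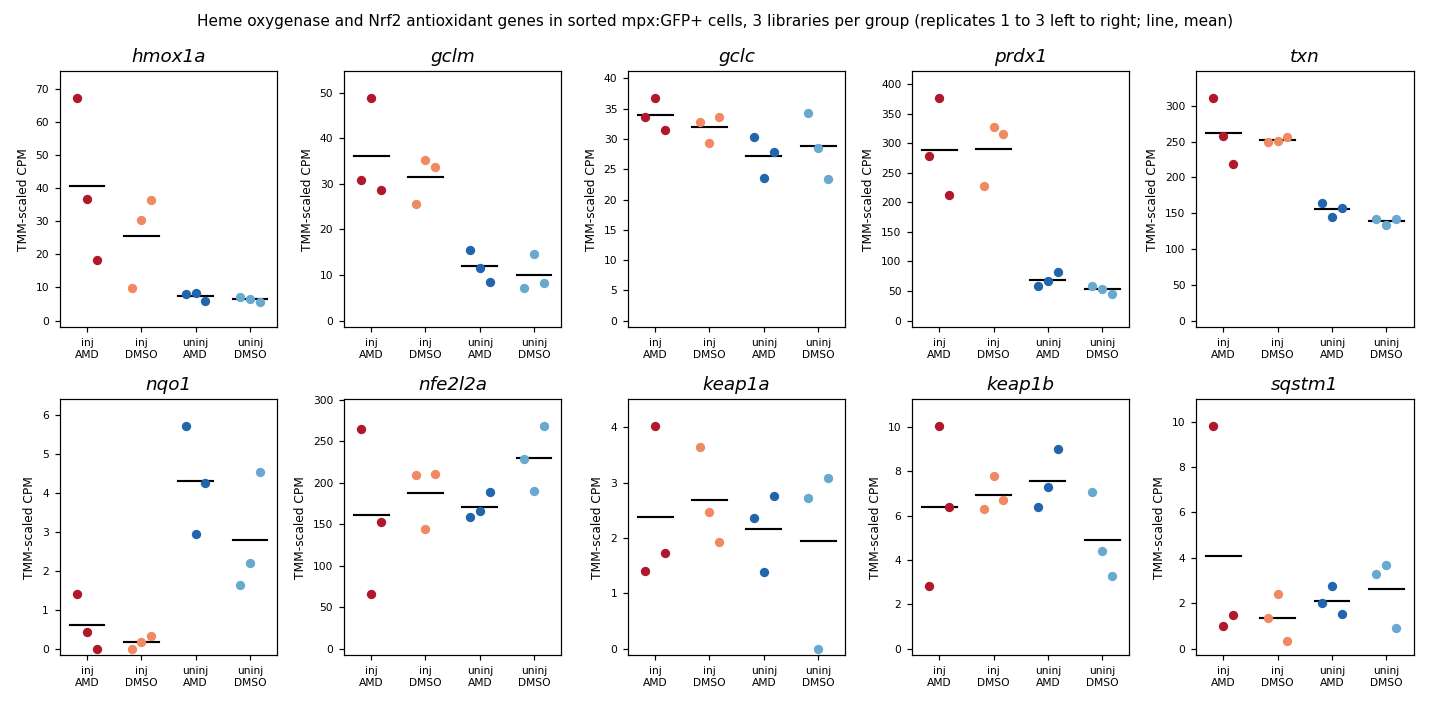
Expression of the 10 genes in each library, in TMM-scaled CPM on linear axes; points are libraries (replicates 1 to 3 from left to right) and lines are group means. In hmox1a, gclm, prdx1 and txn all injured libraries lie above all uninjured ones, in nqo1 they lie below, and in nfe2l2a, keap1a, keap1b and sqstm1 they overlap.

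The regulators themselves did not pass the test. The second Nrf2 copy, nfe2l2b, had 0 counts in all 4 groups and was not tested. The Nrf2 gene nfe2l2a (ENSDARG00000042824) had 265, 65.5 and 152 CPM in injured AMD3100 against 158, 166 and 188 CPM in uninjured AMD3100, and 209, 144 and 210 CPM in injured DMSO against 229, 190 and 268 CPM in uninjured DMSO. The injured AMD3100 libraries extended past the uninjured AMD3100 ones on both sides, and the averaged log2 fold change was -0.20 (95% interval -0.77 to 0.37, adjusted p = 0.661; -0.45 without injured AMD3100 replicate 1, adjusted p = 0.168). The Keap1 genes keap1a (ENSDARG00000016132) and keap1b (ENSDARG00000074634), which encode the co-orthologous adaptors that present Nrf2 to the Cul3 ubiquitin ligase, were counted in few reads. The gene keap1a held 50 counts over the injured AMD3100 libraries and 51 over the injured DMSO ones, against 33 over uninjured AMD3100 and 22 over uninjured DMSO, where replicate 2 had 0 counts. The groups differ in depth. Scaled to CPM, keap1a averaged 2.38 ± 1.43 in injured AMD3100 and 2.68 ± 0.883 in injured DMSO. It averaged 2.16 ± 0.705 in uninjured AMD3100 and 1.94 ± 1.69 in uninjured DMSO (mean ± SD, n = 3). Its averaged log2 fold change was 0.29 (95% interval -0.84 to 1.41, adjusted p = 0.765). The gene keap1b averaged 6.42 ± 3.63 CPM in injured AMD3100 and 6.94 ± 0.760 CPM in injured DMSO, against 7.56 ± 1.32 CPM in uninjured AMD3100 and 4.91 ± 1.95 CPM in uninjured DMSO (mean ± SD, n = 3). Its averaged log2 fold change was 0.23 (95% interval -0.42 to 0.88, adjusted p = 0.659). These intervals leave room for changes of up to 2.65-fold in keap1a and 1.85-fold in keap1b in the direction of a rise.

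The autophagy receptor gene sqstm1 (ENSDARG00000075014), which encodes p62, a protein that carries ubiquitinated cargo into autophagosomes and in mammals can sequester Keap1, was also counted in few reads. It had 7, 7 and 18 counts in injured AMD3100 against 6, 30 and 6 in uninjured AMD3100, and 4, 27 and 2 in injured DMSO against 6, 5 and 5 in uninjured DMSO. In CPM its highest value, 9.81, was in the shallowest library, and all other libraries were at or below 3.66 CPM. The averaged log2 fold change was -0.18 (95% interval -1.61 to 1.25, adjusted p = 0.892), a wide interval. Leaving out injured AMD3100 replicate 1 gave -0.75 (adjusted p = 0.424).

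**Figure D2:**
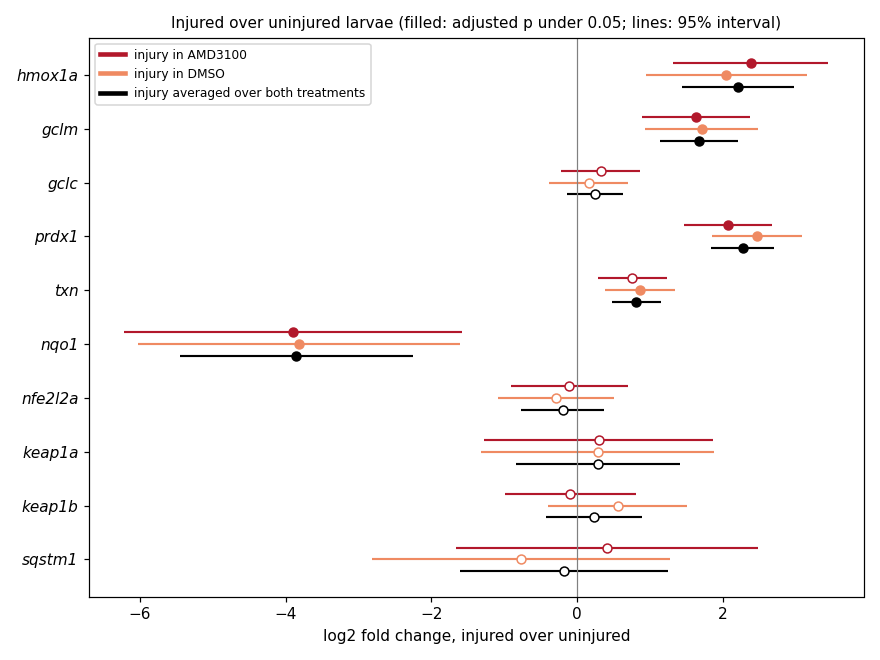
Log2 fold change of injured over uninjured larvae for the 10 genes, with AMD3100, in DMSO and averaged over both treatments; lines are 95% intervals and filled points have an edgeR adjusted p under 0.05. The points of hmox1a, gclm, prdx1 and txn lie to the right of 0 and those of nqo1 to the left in both treatments, while the intervals of gclc, nfe2l2a, keap1a, keap1b and sqstm1 cross 0.

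Within each treatment the 5 genes called in the averaged contrast kept their directions, with wider intervals. With AMD3100, 3 of the 10 genes were called higher and 1 lower, where 5.42% of all entries tested were called, 3% higher and 2.41% lower. Of the 10 genes, 5 were higher and 1 lower without overlap with AMD3100 (24.5% of all entries, 10.5% higher and 14% lower), and 4 were higher and 1 lower in DMSO (29.6% of all entries, 15.9% higher and 13.7% lower). The genes called with AMD3100 were prdx1 (log2 fold change 2.07, adjusted p = 0.00147), hmox1a (2.38, adjusted p = 0.0132), gclm (1.63, adjusted p = 0.0150) and nqo1 (-3.90, adjusted p = 0.0499), and txn missed the threshold (0.75, adjusted p = 0.0634). The call of hmox1a was lost without uninjured AMD3100 replicates 2 or 3, that of gclm without these or injured AMD3100 replicate 2, and that of nqo1 without any library other than injured AMD3100 replicate 1. The adjusted p reached 0.0630, 0.0811 and 0.148 for these 3 genes when a library was left out. After thinning to the shallowest library and with the muscle covariate the calls of hmox1a (adjusted p = 0.0653 and 0.0672) and gclm (0.0897 and 0.138) were lost, and gclm was also lost in a fit to only the groups compared (0.060). The call of nqo1 was lost with RLE or upper-quartile factors, only the groups compared, the replicate block, no mitochondrial genes and the muscle covariate (adjusted p up to 0.108). The 458 entries called over the whole table became 217 without injured AMD3100 replicate 2, 298 without injured DMSO replicate 2, and 234, 119 and 196 without uninjured AMD3100 replicates 1, 2 and 3.

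In DMSO, 4 of the 10 genes were called higher and 1 lower, where 5.19% of all entries were called, 2.86% higher and 2.33% lower. These were prdx1 (log2 fold change 2.47, adjusted p = 5.04e-04), gclm (1.71, adjusted p = 0.0141), hmox1a (2.04, adjusted p = 0.0336), txn (0.86, adjusted p = 0.0379) and nqo1 (-3.81, adjusted p = 0.0457). The call of gclm was lost without injured DMSO replicates 2 or 3 or uninjured DMSO replicates 1 or 3, and that of hmox1a without injured DMSO replicates 2 or 3 or any uninjured DMSO replicate. The calls of txn and nqo1 were lost without any DMSO library or any uninjured AMD3100 library. The adjusted p reached 0.0917, 0.138, 0.141 and 0.225 for gclm, hmox1a, txn and nqo1, while prdx1 was called in both treatments without any 1 library (adjusted p up to 0.0165 with AMD3100 and up to 0.00780 in DMSO). The call of hmox1a was also lost with limma-voom (0.0728), the replicate block (0.0548), thinning (0.138) and the macrophage covariate (0.0765). That of txn was lost with RLE factors, upper-quartile factors, no filter, the replicate block and the macrophage covariate (adjusted p up to 0.117), and that of nqo1 with limma-voom (0.0675) and the replicate block (0.0849). The 439 entries called over the whole table became 240, 173 and 187 without injured DMSO replicates 1, 2 and 3, 204 and 163 without uninjured DMSO replicates 2 and 3, and 659 without injured AMD3100 replicate 1.

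The second question was whether the Cxcr4 inhibitor altered these genes. None of the 10 was called between AMD3100 and DMSO in injured or in uninjured larvae by edgeR, DESeq2 or limma-voom, and 0 of 10 had an unadjusted p under 0.05 in either state. Over all entries tested, 0% were called in injured larvae (466 of 8453 had an unadjusted p under 0.05) and 0.0118%, a single entry, in uninjured larvae (433 had an unadjusted p under 0.05). Without injured AMD3100 replicate 3, 72 entries were called in injured larvae, 2 of them higher with AMD3100, and none of the 10 genes was among them. In injured larvae the libraries of all 10 genes overlapped between the treatments, where 10.3% of all entries did not (4.66% higher and 5.67% lower with AMD3100). In uninjured larvae the AMD3100 libraries of txn lay above and those of nfe2l2a below the DMSO ones without overlap, where 6.91% of all entries were higher and 6.02% lower in that way (12.9% in all). In injured larvae hmox1a averaged 40.8 ± 24.7 CPM with AMD3100 and 25.5 ± 13.8 CPM in DMSO (mean ± SD, n = 3; log2 fold change 0.58, 95% interval -0.42 to 1.58, adjusted p = 0.958). Without injured AMD3100 replicate 1 this log2 fold change was 0.09. The other 9 genes lay between nfe2l2a (-0.25, 95% interval -1.05 to 0.56) and sqstm1 (1.02, 95% interval -1.06 to 3.10, and -0.14 without injured AMD3100 replicate 1). In uninjured larvae hmox1a averaged 7.38 ± 1.41 CPM with AMD3100 and 6.37 ± 0.832 CPM in DMSO (log2 fold change 0.25, 95% interval -0.89 to 1.377). The other 9 genes lay between nfe2l2a (-0.43, 95% interval -1.23 to 0.37) and keap1b (0.67, 95% interval -0.29 to 1.63).

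**Figure D3:**
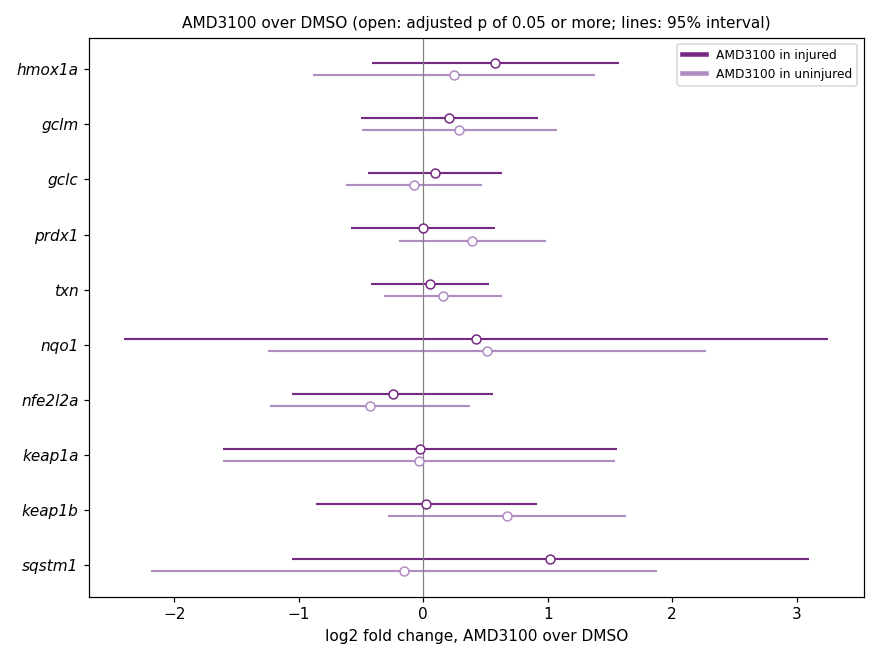
Log2 fold change of AMD3100 over DMSO for the 10 genes in injured and in uninjured larvae; lines are 95% intervals and open points have an edgeR adjusted p of 0.05 or more. All 20 intervals cross 0, and those of nqo1, sqstm1 and keap1a are the widest.

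The interaction, which asks whether the injury difference itself differs between AMD3100 and DMSO, called none of the 10 genes (0 had an unadjusted p under 0.05) and 0% of all entries with edgeR (265 of 8453 had an unadjusted p under 0.05), and none with DESeq2 or limma-voom. Without injured AMD3100 replicate 3 the interaction called 2 entries, neither of them among the 10 genes. For hmox1a the difference between the injury effects was 0.33 on the log2 scale (95% interval -1.18 to 1.85), against -0.16 when injured AMD3100 replicate 1 was left out. The values of the other genes ran from keap1b (-0.65, 95% interval -1.96 to 0.66) to sqstm1 (1.18, 95% interval -1.73 to 4.08). For prdx1 the interval of -1.23 to 0.43 excludes an injury effect more than 1.35 times as large with AMD3100 as in DMSO, whereas for nqo1 the interval of -4.13 to 3.96 sets no useful bound.

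The rest of the pathway was described from 8 lists with 219 genes, of which 201 had an entry, chosen with earlier results of these data known. Values are log2 fold changes of injured over uninjured larvae averaged over both treatments, where 7.97% of all entries were called higher and 8.01% lower. Of 10 tested regulators of Nrf2, 1 was higher and 0 lower. This was rbx1, the RING subunit of Cul3 ubiquitin ligases (0.74, adjusted p = 0.0167), which was called in neither treatment alone. Its averaged call was lost without injured DMSO replicate 2 (adjusted p = 0.0576) and in the fit that held the muscle share constant (adjusted p = 0.0628). The heme-responsive repressor of hmox1 genes, bach1b, averaged 15.3 ± 1.88 CPM in injured AMD3100 and 18.1 ± 5.18 in injured DMSO, against 11.1 ± 2.87 in uninjured AMD3100 and 9.70 ± 3.44 in uninjured DMSO. It did not pass the test (0.66, adjusted p = 0.0859) and was named after its values were seen.

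Thioredoxin and peroxiredoxin genes moved in both directions, with 6 of 18 tested members higher and 4 lower. The thioredoxin domain gene txndc12, which encodes an oxidoreductase of the endoplasmic reticulum, averaged 44.2 ± 16.4 CPM in injured AMD3100 and 31.7 ± 1.44 in injured DMSO, against 7.21 ± 4.66 in uninjured AMD3100 and 3.76 ± 0.547 in uninjured DMSO (mean ± SD, n = 3; log2 fold change 2.85, adjusted p = 5.61e-05). The thioredoxin reductase gene txnrd3, whose enzyme family hands electrons from NADPH to thioredoxin, averaged 1148.5 ± 265 CPM in injured AMD3100 and 1188 ± 189 in injured DMSO, against 578 ± 56.8 in uninjured AMD3100 and 566 ± 70.3 in uninjured DMSO (1.03, adjusted p = 0.00127). The methionine sulfoxide reductase gene msrb3 rose as well (2.04, adjusted p = 0.00627). It averaged 6.41 CPM in injured AMD3100 and 3.64 in injured DMSO, against 1.121 in uninjured AMD3100 and 0.971 in uninjured DMSO. This gene passed the filter on low counts through its injured libraries, and depth limits what its fold change can show. The peroxiredoxin gene prdx5 was lower (-0.81, adjusted p = 0.00627), with 330.5 ± 89.6 CPM in injured AMD3100 and 314 ± 14.1 in injured DMSO, against 638 ± 30.9 in uninjured AMD3100 and 505 ± 85.2 in uninjured DMSO. The calls of these 4 genes and of prdx1 in the averaged contrast held without any 1 library. Their signs were the same with TMM, RLE, upper-quartile and DESeq2 scaling. That comparison could not show otherwise, because the median over all entries moved only from -0.050 with TMM to -0.063, -0.079 and -0.059 with the others. Within each treatment, txndc12 and txnrd3 were called in both, and msrb3 and prdx5 only with AMD3100. The number higher in the list ran from 3 to 7 and the number lower from 2 to 5 over all settings.

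Among genes of heme, biliverdin and iron, 5 of 21 tested members were higher and 1 was lower. The ferritin heavy chain gene fth1a, which stores iron in an oxidized form, averaged 2875 ± 1051 CPM in injured AMD3100 and 2551.5 ± 339 in injured DMSO, against 658 ± 168 in uninjured AMD3100 and 653 ± 201 in uninjured DMSO (mean ± SD, n = 3; log2 fold change 2.05, adjusted p = 6.29e-05). The ferritin-like genes fthl27 (1.45, adjusted p = 3.62e-04) and fthl28 (3.47, adjusted p = 0.00118) were also higher, and reads may be split among the similar copies of this family. The gene fthl28 averaged 6.21 CPM in injured AMD3100 and 8.27 in injured DMSO, against 0.319 in uninjured AMD3100 and 1.52 in uninjured DMSO. It passed the filter through its injured libraries, and depth limits what its fold change can show. The heme transporter gene slc48a1b, known for moving heme out of endolysosomes, averaged 9.85 ± 4.90 CPM in injured AMD3100 and 7.86 ± 1.44 in injured DMSO, against 4.05 ± 1.47 in uninjured AMD3100 and 1.70 ± 0.414 in uninjured DMSO (1.66, adjusted p = 0.00437). The iron exporter gene slc40a1, which encodes ferroportin, went the other way, with 7.83 ± 2.82 CPM in injured AMD3100 and 4.26 ± 0.664 in injured DMSO, against 21.6 ± 1.03 in uninjured AMD3100 and 21.2 ± 6.28 in uninjured DMSO (-1.92, adjusted p = 1.62e-04). These 5 calls held in the averaged contrast without any 1 library, while the number higher in the list ran from 2 to 6 under the other settings. Within each treatment, fth1a, fthl27 and slc40a1 were called in both, fthl28 only with AMD3100 and slc48a1b only in DMSO. The 18 erythroid markers found summed to 42.8 to 197 CPM in injured AMD3100, against 34.4 to 173 CPM in uninjured AMD3100 (exact two-sided permutation p = 0.7). They summed to 34.6 to 47.1 CPM in injured DMSO, against 115 to 469 CPM in uninjured DMSO (exact two-sided permutation p = 0.1). The part of these markers in the heme and iron genes was not tested. The constitutive heme oxygenase gene hmox2a, named after its values were seen, did not pass the test (-1.376, adjusted p = 0.102).

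Glutathione genes other than gclc and gclm were mostly lower where they were called, with 1 of 22 tested members higher and 10 lower. The median of the list was -0.56, against -0.05 over all entries tested. The glutathione transferase gene gstm.1 averaged 25.6 ± 11.3 CPM in injured AMD3100 and 30.2 ± 3.29 in injured DMSO, against 65.7 ± 7.92 in uninjured AMD3100 and 62.1 ± 1.51 in uninjured DMSO (-1.16, adjusted p = 0.00176). The 5-oxoprolinase gene oplah, which returns glutamate from glutathione breakdown (-3.16, adjusted p = 0.00214), the omega-class transferase gene gsto1 (-2.65, adjusted p = 0.00245), the glutathione-degrading cyclotransferase gene chac1 (-1.13, adjusted p = 0.00486) and the microsomal transferase gene mgst3a (-1.20, adjusted p = 0.00586) were lower too. These 5 calls held in the averaged contrast without any 1 library. The number lower in the list ran from 6 to 9 when a library was left out and from 5 to 10 under the other settings. The gene gsto1 averaged 0.568 CPM in injured AMD3100 and 0.512 in injured DMSO, against 4.02 in uninjured AMD3100 and 4.19 in uninjured DMSO. For oplah these means were 1.35 and 0.570 CPM, against 7.79 and 11.6 CPM. Both genes passed the filter through their uninjured libraries, and depth limits what their fold changes can show. Within each treatment, gstm.1, chac1 and mgst3a were called only with AMD3100, and oplah and gsto1 only in DMSO. Close to the threshold and without overlap were gstm.1 in DMSO (-1.04, edgeR adjusted p = 0.0549) and gsto1 with AMD3100 (-2.43, edgeR adjusted p = 0.0610). With AMD3100, oplah was also lower without overlap (-2.17, edgeR adjusted p = 0.134). Over all entries tested, 13.7% were lower without overlap in DMSO and 14% with AMD3100. Both gsto1 and oplah were at 0 CPM in injured AMD3100 replicate 1, where 3 counts are 4.21 CPM. The interaction called none of gstm.1, oplah, gsto1, chac1 and mgst3a. In DMSO the groups overlapped for chac1 (-0.66, edgeR adjusted p = 0.286) and mgst3a (-0.87, edgeR adjusted p = 0.191). Reads of gstm.1 and other tandem transferase genes may be split among similar copies. The cystine transporter gene slc7a11, a Nrf2 target in mammals that was named after its values were seen, had a log2 fold change of -0.02 (adjusted p = 0.976).

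Of 17 tested quinone and carbonyl detoxification genes, 1 was higher and 3 were lower. The soluble epoxide hydrolase gene ephx2 rose (2.52, adjusted p = 4.67e-04). With AMD3100 its groups overlapped, with 25.2 CPM in injured replicate 1 against 35.5 CPM in uninjured replicate 3. The aldehyde dehydrogenase genes aldh9a1a.1 (-1.80, adjusted p = 6.29e-05) and aldh2.1 (-1.51, adjusted p = 0.0131) and the aldo-keto reductase gene akr1b1.2 (-1.40, adjusted p = 4.91e-04) fell, as nqo1 did. When the muscle share was a covariate the call of aldh2.1 was lost (adjusted p = 0.110), and within each treatment it was called only with AMD3100. None of the 3 tested superoxide dismutase and catalase genes, sod1, sod2 and cat, was called by edgeR, while 1 of them, cat, had an unadjusted p under 0.05. Their log2 fold changes were -0.34, -0.28 and -0.66 (named after their values were seen), and up to 1 was called lower under the alternative settings. Of 14 tested genes listed under NADPH supply, the malic enzyme gene me2 was higher (1.505, adjusted p = 0.00160). Lower were me3 (-1.06, adjusted p = 0.0131) and the pentose phosphate epimerase gene rpe (-0.84, adjusted p = 0.0132). Whether each listed enzyme itself yields NADPH was not tested. The calls of me3 and rpe were lost when the muscle share was a covariate, with an adjusted p of 0.109 for me3 and 0.132 for rpe. The call of me3 was also lost with no filter on low counts (adjusted p = 0.0663), and that of rpe after thinning (adjusted p = 0.0799). Within each treatment, me2 was called in both, rpe only with AMD3100 and me3 in neither.

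Around sqstm1, 3 of 20 tested genes of selective autophagy were higher and 1 was lower. The lipidation factor gene atg16l1 averaged 229.7 ± 29.0 CPM in injured AMD3100 and 223 ± 21.5 in injured DMSO, against 116.5 ± 12.4 in uninjured AMD3100 and 131 ± 11.9 in uninjured DMSO (0.88, adjusted p = 0.00191). The autophagosome membrane gene map1lc3b was higher (1.097, adjusted p = 0.0131), a call lost when the muscle share was a covariate (adjusted p = 0.178). The call of the adaptor gene tollip (0.62, adjusted p = 0.0347) was lost in 9 of the 12 fits that left out 1 library (adjusted p up to 0.0833), and it held without injured AMD3100 replicates 1 or 3 or uninjured DMSO replicate 2. It was also lost with no filter (adjusted p = 0.0626), after thinning (0.109) and with the muscle (0.0903) or macrophage covariate (0.0508). Within each treatment, atg16l1 was called only with AMD3100, and map1lc3b and tollip in neither. The sestrin gene sesn1, whose protein family limits oxidant build-up and growth signalling, averaged 3.75 ± 0.3999 CPM in injured AMD3100 and 1.59 ± 0.752 in injured DMSO, against 13.2 ± 4.15 in uninjured AMD3100 and 11.3 ± 3.90 in uninjured DMSO (-2.32, adjusted p = 2.39e-04).

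**Figure D4:**
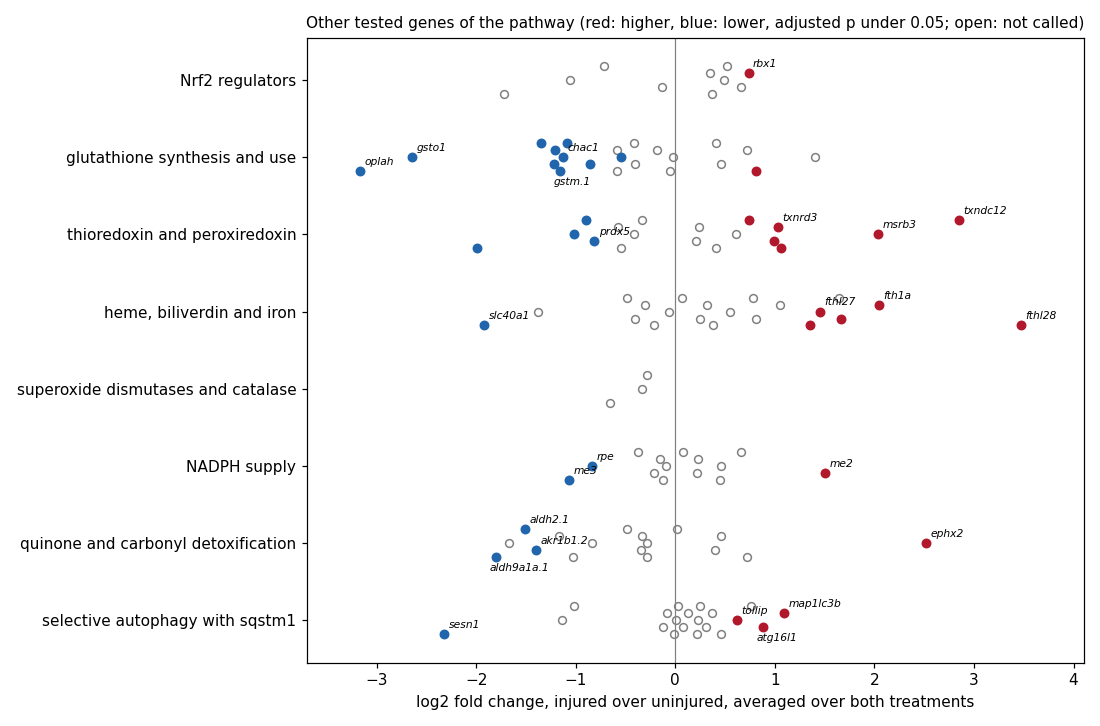
Log2 fold change of injured over uninjured larvae, averaged over both treatments, for the tested genes of 8 lists; each point is a gene, filled red or blue where it was called higher or lower by edgeR and open where it was not. Called glutathione genes lie mostly to the left of 0 (10 lower, 1 higher), and those of heme and iron mostly to the right (5 higher, 1 lower).

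Over the 12 libraries, the named genes whose log2 CPM was most like that of hmox1a were asns (Pearson r = 0.953), abracl (0.952), acot7 (0.949), cdipt (0.948) and vps37c (0.945). Among the other members, txn (r = 0.905) ranked 63, prdx1 (0.884) ranked 107 and gclm (0.861) ranked 155 of 8452 other entries. The remaining members were gclc (0.60), keap1a (0.12), sqstm1 (0.11), keap1b (-0.05), nfe2l2a (-0.28) and nqo1 (-0.57). These correlations describe 12 libraries that share the injury groups and differ in depth, and they carry no test.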

How the data were processed

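Messenger RNA of 2500 to 4800 sorted cells per library was counted with an adapted CEL-seq protocol, which reads transcript ends, per the labels' protocols. The authors deposited raw counts per gene for 12 libraries. BWA, GRCz11 and DESeq2 1.38 are named, with no role, per the submitters' processing notes; the labels do not say whether molecular identifiers were collapsed or strand was used. P-values reflect the spread between these libraries. The 88 ERCC entries were left out, leaving 31263 entries. With edgeR 4.0.16 under R 4.3.3, filterByExpr (minimum count 10, minimum total 15) kept 8453, of which 77 join overlapping genes. Totals ran from 655451 to 12173133 counts, and the depth sets the precision of low genes. TMM factors and a quasi-likelihood model with 1 coefficient per group over all 12 libraries gave 6 contrasts, with Benjamini-Hochberg adjustment over all entries and a threshold of 0.05. Standard errors were derived from the F statistic, and CPM are scaled by TMM factors. All 10 members were found by identifier in the Ensembl name table, but only 2 of the 10 carry the same symbol there. The txn entry, for example, is called txnb there, and the symbols of the count table were kept. No sequences or genome positions were used here.

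The 10 members and the lists (219 pathway genes, 199 markers, 188 of them found) were chosen with earlier results of these data known. All members were named, and up to 4 called genes per list and contrast, smallest p first; for hmox1a the 5 genes with the highest Pearson correlation, leaving out clone-based names. Alternatives were DESeq2 1.42.0, RLE and upper-quartile factors, no filter, 10 CPM in 3 libraries, limma-voom (limma 3.58.1), a fit to only the groups compared, replicate number as a block, no mitochondrial genes, thinning to the shallowest library, the muscle or macrophage share as a covariate, and each library left out. A fit was tested on simulated data.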

Additional observations from a re-analysis of the deposited data

Results flagged for a closer look

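A joint entry that combines nfe2l2a with an overlapping long noncoding RNA, and which no comparison used, held 4 counts in uninjured AMD3100 replicate 2 and 0 in all uninjured DMSO libraries. The nfe2l2a entry itself held 3019 counts in uninjured AMD3100.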

How the results depend on the processing

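Averaged over both treatments, the members called numbered 4 higher and 1 lower in each of the 12 fits that left out 1 library. The 1 lower became 0 with a filter of 10 CPM in 3 libraries and after thinning to the shallowest library, because nqo1 was not tested there. Injury with AMD3100 gave 3 higher and 1 lower. The number higher was 1 after thinning and 1 with the muscle share as covariate, and it ran between 1 and 4 when a library was left out. The number lower was 0 with RLE factors, upper-quartile factors, the 10 CPM filter, only the groups compared, the replicate block, no mitochondrial genes, thinning and the muscle covariate, and 0 to 1 when a library was left out. Injury in DMSO gave 4 higher and 1 lower. The number higher was 2 with the replicate block and 2 with the macrophage covariate, and 1 to 4 when a library was left out. The number lower was 0 with the 10 CPM filter, limma-voom, only the groups compared, the replicate block and thinning, and 0 to 1 when a library was left out. The cause of these changes, other than a gene not being tested, was not tested.

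Genes that were not called changed sign as follows, in log2 fold change. With the muscle covariate, injury with AMD3100 gave 0.10 for nfe2l2a and -0.46 for keap1a, and the averaged injury contrast gave -0.061 for keap1a and 0.88 for sqstm1. With limma-voom, sqstm1 was -0.66 for injury with AMD3100 and -0.25 for the interaction. With the macrophage covariate, hmox1a was -0.30 for AMD3100 in uninjured larvae. When a library was left out, injury with AMD3100 ran from -0.62 to 0.30 for nfe2l2a, -0.33 to 0.66 for keap1a, -0.48 to 0.13 for keap1b and -0.74 to 1.07 for sqstm1. Injury in DMSO ran from -0.15 to 0.83 for keap1a, and the averaged contrast from -0.031 to 0.60 for keap1a and -0.75 to 0.14 for sqstm1. AMD3100 in injured larvae ran from -0.78 to 0.15 for nfe2l2a and -0.14 to 1.98 for sqstm1, and the interaction from -0.16 to 0.77 for hmox1a.

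Over all entries, injury with AMD3100 called 458, and 119 to 574 when a library was left out (119 without uninjured AMD3100 replicate 2). Injury in DMSO called 439, and 163 (without uninjured DMSO replicate 3) to 659 (without injured AMD3100 replicate 1). The averaged contrast called 1351, and 739 with the muscle covariate. Residuals of same-numbered libraries were at most weakly correlated (r from -0.0806 to 0.140 over 12 pairs, 1 of them over 0.1). These pairs reuse the same libraries, so the values cannot decide whether equal numbers mark a pairing. With no filter, AMD3100 called 105 entries in injured and 145 in uninjured larvae and the interaction 68, and DESeq2 called 1, 19 and 0. The shallowest library, where 3 counts are 4.21 CPM, limits nqo1, keap1a and sqstm1.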
